A study of Mus musculus with 39 samples.

Results

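The voltage-gated sodium channel subunits described here are 7 genes, 4 for the long pore-forming alpha subunits (Scn1a, Scn2a, Scn3a and Scn8a) and 3 for the short accessory beta subunits (Scn2b, Scn3b and Scn4b). They were chosen by gene symbol as 7 of the 47561 genes listed in the deposited table. All 7 were among the 14701 genes that reached 1 FPKM in at least 3 libraries and were tested.

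Poly(dT)-purified RNA of mouse brain was sequenced after soman or saline. Soman, an organophosphate nerve agent that blocks acetylcholinesterase, was injected under the skin at 1/10 LD50, 1/5 LD50 or 1/2 LD50, the LD50 being the dose lethal to 50% of animals, and brains were collected at day 1, 3, 7 or 14. This gave 12 soman groups and a single saline group, each of 3 libraries that the series calls biological replicates, or 39 libraries in all. Strain, sex, age, the number of animals behind a library, the day of the saline brains and whether soman was given once or repeatedly are not given in the sources used here. P-values therefore measure the spread between libraries, and a difference from saline may also hold any difference between collection days.

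Alpha subunits form the sodium-selective pore that opens on depolarisation and carries the rising phase of the action potential. Beta subunits are single-pass membrane proteins with an immunoglobulin-like domain that adjust the gating and surface level of the channel and act as adhesion molecules. In the adult brain Scn1a (Nav1.1) is best known from inhibitory interneurons, Scn2a (Nav1.2) from excitatory neurons and unmyelinated axons, and Scn8a (Nav1.6) from axon initial segments and nodes of Ranvier, while Scn3a (Nav1.3) is mainly a channel of the embryonic and newborn brain.

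Scn1a, Scn2a and Scn3a lie on chromosome 2, Scn8a on chromosome 15, and Scn2b, Scn3b and Scn4b on chromosome 9 (GRCm38.p6, GENCODE vM21). The longest annotated transcripts of the alpha genes were 8386 bases for Scn1a, 8935 for Scn2a, 9560 for Scn3a and 11436 for Scn8a, longer than 95.2% to 98.6% of tested genes. Those of the beta genes were 4656 bases for Scn2b, 4150 for Scn3b and 4982 for Scn4b, longer than 65.5% to 77.6% of tested genes. No exon of another annotated gene overlapped an exon of a member.

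Promoter windows are shown because several members changed together. They run from 250 bases before to 50 bases after a RefSeq gene start (GRCm38.p6, 5′ to 3′ on the gene's strand) and were found for 5 of the 7 members, Scn3a and Scn3b being the others. Each was searched on both strands for the TATA box TATAAA, the GC box GGGCGG, the CCAAT box, the cyclic AMP response element core TGACG, the AP-1 site TGANTCA and the E-box CACGTG, none of which contains another. Matches are in capitals.
Scn1a, chr2:66440788-66441087, strand -: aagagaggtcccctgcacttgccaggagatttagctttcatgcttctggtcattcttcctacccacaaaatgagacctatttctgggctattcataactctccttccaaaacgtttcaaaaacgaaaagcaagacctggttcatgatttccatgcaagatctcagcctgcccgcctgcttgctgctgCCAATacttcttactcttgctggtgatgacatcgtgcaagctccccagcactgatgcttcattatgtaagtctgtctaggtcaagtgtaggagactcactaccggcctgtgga
Scn2a, chr2:65668436-65668735, strand +: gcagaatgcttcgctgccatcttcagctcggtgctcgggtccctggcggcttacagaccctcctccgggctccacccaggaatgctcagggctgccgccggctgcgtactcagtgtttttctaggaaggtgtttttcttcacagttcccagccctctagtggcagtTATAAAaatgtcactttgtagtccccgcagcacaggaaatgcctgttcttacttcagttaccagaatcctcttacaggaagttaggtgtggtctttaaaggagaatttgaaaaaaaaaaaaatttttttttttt
Scn8a, chr15:100870395-100870694, strand +: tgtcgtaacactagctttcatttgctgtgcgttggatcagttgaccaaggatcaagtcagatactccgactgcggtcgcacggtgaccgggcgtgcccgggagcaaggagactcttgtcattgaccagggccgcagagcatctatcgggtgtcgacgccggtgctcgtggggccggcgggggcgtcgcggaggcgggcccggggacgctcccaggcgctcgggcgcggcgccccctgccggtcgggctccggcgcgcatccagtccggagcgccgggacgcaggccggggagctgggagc
Scn2b, chr9:45117626-45117925, strand +: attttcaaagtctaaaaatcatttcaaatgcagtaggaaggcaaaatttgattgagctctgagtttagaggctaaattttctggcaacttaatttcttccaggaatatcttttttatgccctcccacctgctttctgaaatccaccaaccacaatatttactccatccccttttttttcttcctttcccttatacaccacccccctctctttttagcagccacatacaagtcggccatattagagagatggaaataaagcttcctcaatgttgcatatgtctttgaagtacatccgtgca
Scn4b, chr9:45138374-45138673, strand +: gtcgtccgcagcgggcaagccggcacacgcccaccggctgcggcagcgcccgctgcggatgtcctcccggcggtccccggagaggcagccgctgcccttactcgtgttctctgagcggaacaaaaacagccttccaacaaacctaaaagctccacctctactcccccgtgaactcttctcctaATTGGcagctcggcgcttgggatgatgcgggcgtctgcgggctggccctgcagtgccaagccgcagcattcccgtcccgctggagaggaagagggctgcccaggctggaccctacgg
The Scn1a and Scn4b windows each held 1 CCAAT match (on the other strand in Scn4b), a motif in 37.4% of 32851 promoter windows of this length. The second of the 2 Scn2a windows held 1 TATAAA match, found in 13.6% of windows. The first Scn2a window, both Scn8a windows and the Scn2b window held none of the 6 motifs. Base composition also differed between members, with 70.0% G+C and 38 CpG in the first Scn8a window and 66.3% and 26 in Scn4b, against 47.3% and 5 in Scn1a and 38.3% and 2 in Scn2b (median of all windows 52.7% and 7). No motif was shared by the members that fell.

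FPKM is scaled to transcript length, and levels are set side by side across genes on that basis. Changes between groups nevertheless followed transcript length, as given below, so an order of genes of unlike length is approximate. In saline brain Scn2b averaged 51.6 ± 2.78 FPKM (SD, n = 3 here and for each gene after it), Scn2a 39.8 ± 2.36, Scn4b 31.35 ± 0.253, Scn8a 27.5 ± 2.16, Scn1a 26.2 ± 1.11, Scn3b 18.7 ± 0.290 and Scn3a 4.74 ± 0.136. The saline libraries of Scn8a and Scn1a overlapped, and every other pair of neighbours in this order was apart in all 3 libraries.

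Replicates 2 and 3 of 1/10 LD50 at day 7 had 20.8% and 24.7% of their FPKM in the 13 mitochondrial mRNA genes, against 6.12% to 13.4% in the other 37 libraries. Summed markers of cerebellar granule cells (6 genes) were at 24.5 and 23.5 FPKM at day 3 in the second replicates of the 1/10 and 1/5 LD50 groups and at 22.5 FPKM at day 7 in replicate 1 of 1/2 LD50, against 177 to 223 FPKM in saline. A set of 7 libraries, listed with the processing and left out as an alternative, lay between the other 2 libraries of the group at 38.3% to 58.9% of genes, against 19.1% to 42.4% for the other 32 libraries, so that the set is not sharply apart. The FPKM of a library summed to 296322 to 342231, and the read depth behind the values is unknown.

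**Figure D1:**
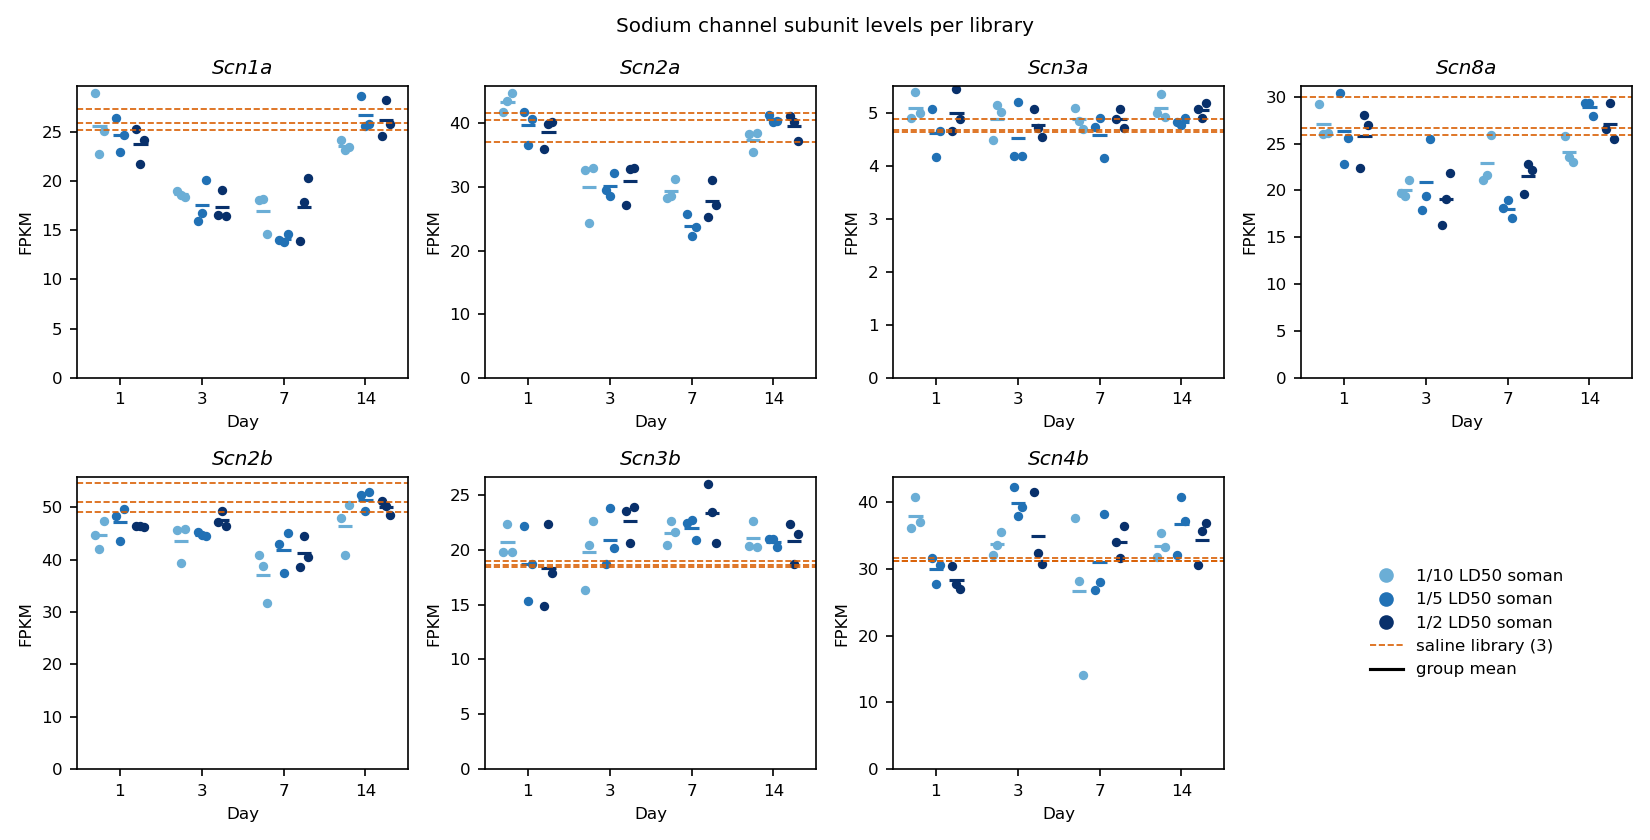
FPKM of each sodium channel subunit in each soman library (points, coloured by dose, against day) with group means (bars, n = 3) and the 3 saline libraries (dashed lines). Scn1a and Scn2a lie under every saline line in 9 of 9 libraries at days 3 and 7 and near the lines at days 1 and 14, whereas Scn3a stays between 4.15 and 5.45 FPKM throughout.

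At day 1 no member passed the test at any dose. At day 3 Scn1a, Scn2a and Scn8a fell at all 3 doses, to between 0.66 and 0.78 of their saline means, while the embryonic alpha gene Scn3a and the 3 beta genes did not pass the test. At day 7 Scn1a, Scn2a and the beta gene Scn2b were lower at every dose and Scn8a at 1/5 LD50, the dose with the largest changes in the 3 alpha genes. At day 14 no member passed. All 12 comparisons use the same 3 saline libraries and so are not independent of each other. In whole brain, fewer cells of a type and less RNA per cell cannot be told apart.

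Of the 7 members, 3 were lower at day 3 at each dose, where 5.36%, 6.12% and 4.65% of all tested genes were lower at 1/10, 1/5 and 1/2 LD50. At day 7 the counts were 3, 4 and 3 of 7, where 15.3%, 8.87% and 6.68% of tested genes were lower. No member was called higher at either day, where 1.61%, 2.48% and 3.79% of tested genes were higher at day 3 and 4.23%, 6.49% and 1.71% at day 7. Without the 3 libraries of low cerebellar markers, left out after seeing the data, 1, 2 and 3 members were lower at day 3. Without the 2 libraries of high mitochondrial share 0 were lower at 1/10 LD50 at day 7, where a single library was left.

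Day 1 gave 0 of 7 members called by limma at 1/10, 1/5 and 1/2 LD50, where 0.347%, 0.0136% and 0.116% of all tested genes were called. In limma's test at an unadjusted p under 0.05 the count was 1 at 1/10 LD50 (Scn2b, log2 change -0.20 ± 0.08 SE, adjusted p = 0.346) and 0 at 1/5 and at 1/2 LD50, where 10.7%, 5.73% and 7.31% of all tested genes were under that p. Over the 9 soman libraries of day 1, Scn1a ran from 21.8 FPKM through a median of 24.7 to 28.95 FPKM, against 25.2, 25.9 and 27.4 FPKM with saline. Scn2a ran from 36.0 FPKM through 40.7 to 44.8 FPKM, against 37.2, 40.6 and 41.7 FPKM with saline. The day 1 and saline libraries overlapped for both genes.

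Scn1a, the Nav1.1 gene, gave at day 3 levels of 19.0, 18.6 and 18.4 FPKM at 1/10 LD50, 15.9, 16.8 and 20.2 FPKM at 1/5 LD50, and 16.55, 19.1 and 16.4 FPKM at 1/2 LD50, against 25.2, 25.9 and 27.4 FPKM with saline. All 9 soman libraries lay below all 3 saline libraries. The log2 changes were -0.46, -0.55 and -0.57 from the low to the high dose (SE 0.10 each, adjusted p = 0.00533, 0.0011 and 0.00119, limma). At day 7 the levels were 18.1, 18.2 and 14.6 FPKM at 1/10 LD50, 14.05, 13.8 and 14.65 FPKM at 1/5 LD50, and 13.9, 17.8 and 20.3 FPKM at 1/2 LD50, again with no overlap with saline. The log2 changes at day 7 were -0.60, -0.84 and -0.58 (SE 0.10 each, adjusted p = 0.000558, 3.25e-06 and 0.000629). The group of 1/5 LD50 at day 7, at 14.2 ± 0.432 FPKM, was the lowest of the 13 groups for this gene, at 0.54 of the saline mean of 26.2 ± 1.11 FPKM (SD, n = 3 each).

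Of the Scn1a calls, those of 1/5 LD50 and 1/2 LD50 at both days passed under all 15 alternatives computed for each. At 1/10 LD50 the day 3 call was lost once each library's trend on transcript length was removed (adjusted p = 0.059) and without the 7 libraries (adjusted p = 0.0983). Its day 7 call was lost without the 2 libraries of high mitochondrial share (-0.51, adjusted p = 0.178) and in a fit of only the groups compared (adjusted p = 0.175).

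Scn2a, the Nav1.2 gene, stood at day 3 at 32.75, 24.3 and 32.9 FPKM at 1/10 LD50, 29.5, 28.7 and 32.2 FPKM at 1/5 LD50, and 27.1, 32.8 and 32.95 FPKM at 1/2 LD50, against 37.2, 40.6 and 41.7 FPKM with saline. Every one of these 9 libraries was below all 3 saline libraries, and the lowest, replicate 2 of 1/10 LD50, is one of the 3 with low cerebellar markers. The log2 changes were -0.41, -0.39 and -0.36 (SE 0.09 each, adjusted p = 0.00572, 0.00698 and 0.0145). At day 7 Scn2a was at 28.2, 28.6 and 31.3 FPKM at 1/10 LD50, 25.8, 22.25 and 23.7 FPKM at 1/5 LD50, and 25.3, 31.1 and 27.2 FPKM at 1/2 LD50, below saline in 9 of 9 libraries. The log2 changes were -0.42, -0.71 and -0.50 (SE 0.09 each, adjusted p = 0.00246, 5.1e-06 and 0.00079).

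The day 7 calls of Scn2a at 1/5 and 1/2 LD50 passed under all 15 alternatives. That of 1/10 LD50 was lost without the 2 libraries of high mitochondrial share (-0.48, adjusted p = 0.178), in a fit of only the groups compared (adjusted p = 0.182) and without the 7 libraries (adjusted p = 0.115). At day 3 the calls of 1/10 LD50 (-0.41, adjusted p = 0.113) and 1/2 LD50 (-0.36, adjusted p = 0.0522) were lost in a fit of only the groups compared. Without replicate 2 of 1/10 LD50 the change at that dose was -0.27 (adjusted p = 0.0846), without replicate 2 of 1/5 LD50 it was -0.36 (adjusted p = 0.0501), and at 1/2 LD50 it was -0.27 without replicate 1 (adjusted p = 0.128) and -0.32 without saline replicate 3 (adjusted p = 0.073). With the length trend removed the 3 day 3 changes were -0.22, -0.20 and -0.19 (adjusted p = 0.121, 0.152 and 0.187), while the 3 day 7 changes were -0.25, -0.48 and -0.30 (adjusted p = 0.0297, 0.000339 and 0.0289).

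Scn8a, the Nav1.6 gene of nodes and initial segments, was at 19.75, 19.4 and 21.2 FPKM at 1/10 LD50, 17.9, 19.4 and 25.5 FPKM at 1/5 LD50, and 16.3, 19.1 and 21.9 FPKM at 1/2 LD50 at day 3, against 25.9, 30.0 and 26.7 FPKM with saline. The soman libraries were again all below the saline libraries, though replicate 3 of 1/5 LD50 only narrowly. The log2 changes were -0.43, -0.39 and -0.51 (SE 0.11 each, adjusted p = 0.0162, 0.0264 and 0.00526). At day 7 the levels were 21.1, 21.7 and 25.95 FPKM at 1/10 LD50, 18.1, 19.0 and 17.0 FPKM at 1/5 LD50, and 19.6, 22.8 and 22.2 FPKM at 1/2 LD50. The change at 1/5 LD50 passed (-0.58, adjusted p = 0.000657), and those at 1/10 LD50 (-0.26, adjusted p = 0.1) and 1/2 LD50 (-0.34, adjusted p = 0.0537) did not, the last passing without the 2 libraries of high mitochondrial share (adjusted p = 0.041).

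The Scn8a call of day 7 at 1/5 LD50 was lost under 1 of 15 alternatives, removal of the length trend (-0.29, adjusted p = 0.0752). That removal also ended the day 3 calls (-0.20, -0.16 and -0.30, adjusted p = 0.273, 0.405 and 0.0887). At day 3 the call of 1/10 LD50 was lost without replicate 2 (-0.41, adjusted p = 0.0764) or without saline replicate 2 (-0.37, adjusted p = 0.0839). The call of 1/5 LD50 was lost under 9 of 15 alternatives, among them those without its replicate 1 (-0.29, adjusted p = 0.157) or 2 (-0.35, adjusted p = 0.127), saline replicate 2 (-0.33, adjusted p = 0.111) or 3 (-0.41, adjusted p = 0.0609), and that of 1/2 LD50 without its replicate 1 (-0.41, adjusted p = 0.064).

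Scn3a, the embryonic alpha gene, did not follow the other 3. Over 36 soman libraries and 3 saline libraries it ran from 4.15 to 5.45 FPKM, the soman libraries enclosing the saline values of 4.64, 4.69 and 4.895 FPKM. Its 12 log2 changes against saline lay between -0.06 and 0.09 (SE 0.07 each), and the smallest adjusted p was 0.654. In the group of 1/5 LD50 at day 7, where the other alpha genes were lowest, it stood at 4.74, 4.91 and 4.15 FPKM (log2 change -0.04, adjusted p = 0.748).

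**Figure D2:**
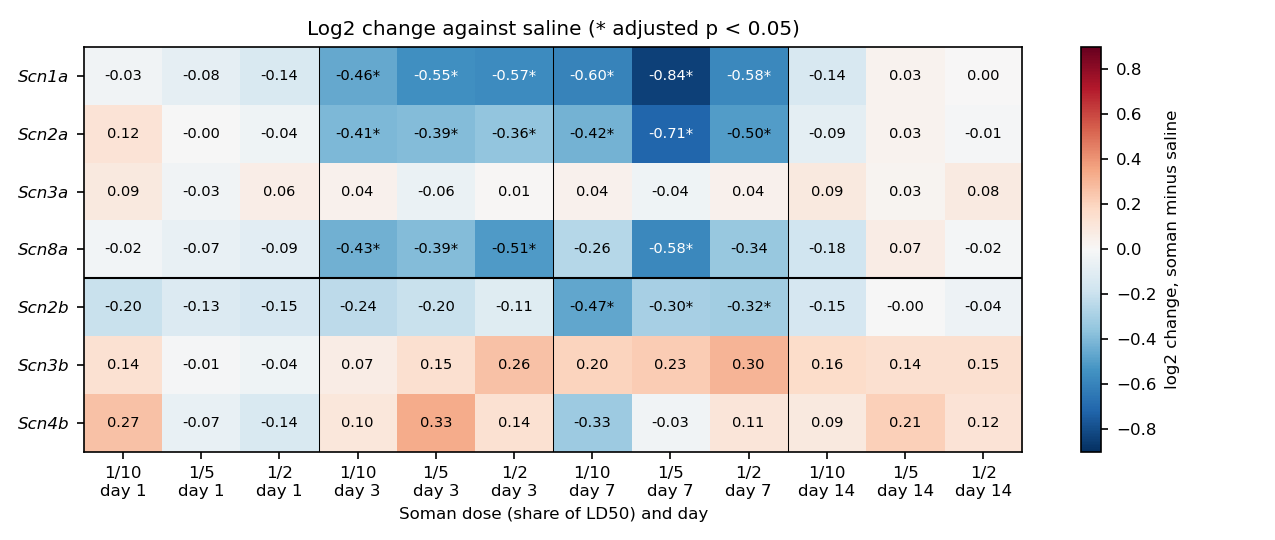
Log2 change of each subunit (rows, alpha genes above the line) in each soman group against saline (columns by day, then dose), with asterisks at an adjusted p under 0.05. The calls fall at days 3 and 7, in Scn1a and Scn2a at every dose of both days, and none falls in Scn3a, Scn3b or Scn4b.

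Among the beta genes only Scn2b, whose protein is joined to the alpha subunit by a disulfide bond, was called against saline. At day 7 it was at 40.8, 38.8 and 31.8 FPKM at 1/10 LD50, 42.9, 37.5 and 45.1 FPKM at 1/5 LD50, and 38.7, 44.6 and 40.6 FPKM at 1/2 LD50, against 51.1, 49.1 and 54.6 FPKM with saline. All 9 libraries were below saline. The log2 changes were -0.47, -0.30 and -0.32 (SE 0.08 each, adjusted p = 0.000712, 0.0132 and 0.0152). Earlier, 8 of 9 libraries of day 1 and 8 of 9 of day 3 were already below all saline libraries, with medians of 46.4 and 45.7 FPKM, but no group passed the test. At 1/10 LD50 at day 3 the change passed with median-ratio scaling (-0.24, adjusted p = 0.0382) and without the 2 libraries of high mitochondrial share (-0.24, adjusted p = 0.0343). At day 14 the median was 50.2 FPKM, with 3 of 9 libraries below saline.

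The Scn2b calls of day 7 rested on single libraries at the higher doses. At 1/5 LD50 the change was -0.22 without replicate 2 (adjusted p = 0.0976) and -0.26 without saline replicate 3 (adjusted p = 0.0784). At 1/2 LD50 it was -0.27 without replicate 1, the library of low cerebellar markers (adjusted p = 0.135), and -0.28 without saline replicate 3 (adjusted p = 0.092). The call of 1/10 LD50 was lost without the 2 libraries of high mitochondrial share (-0.33, adjusted p = 0.242). Removing the length trend ended none of the 3 (adjusted p = 0.00174, 0.0332 and 0.0455).

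Scn3b, a beta subunit held to the channel without a covalent bond, lay on the other side of saline. Its 9 libraries of day 7 ran from 20.5 FPKM through a median of 22.5 to 26.05 FPKM, against 18.4, 19.0 and 18.6 FPKM with saline, and all were above the saline libraries. At day 3, 7 of 9 libraries were above saline and 1 below, and at day 14, 8 of 9 were above. The 3 log2 changes of day 7 were 0.20, 0.23 and 0.30 (SE 0.12 each, adjusted p = 0.247, 0.205 and 0.114), so that none passed. In a fit of only the groups compared, the value at 1/5 LD50 passed (adjusted p = 0.0246).

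Scn4b, the other disulfide-linked beta subunit and a gene best known from striatal projection neurons and Purkinje cells, had the largest SE of the 7 in the comparisons with saline (0.18). Its libraries of 1/10 LD50 at day 7 were at 37.7, 28.2 and 14.15 FPKM, against 31.6, 31.2 and 31.2 FPKM with saline. The value of 14.15 FPKM comes from replicate 3, the library with 24.7% mitochondrial FPKM, in which the sum of 7 striatal projection neuron markers was 203 FPKM, against 244 to 247 FPKM in saline. At day 1 that sum was 198 FPKM in both replicate 2 of 1/5 LD50 and replicate 1 of 1/2 LD50, where Scn4b was at 27.65 and 30.4 FPKM. The sum of 6 Purkinje cell markers was 362.5, 349.5 and 356.8 FPKM in the libraries of 1/10 LD50 at day 7, against 379.5 to 440.3 FPKM in saline. The part of either cell type in the Scn4b values was not tested. The change of 1/10 LD50 at day 7 was -0.33 (SE 0.18, adjusted p = 0.196), without replicate 1 it was -0.62 (adjusted p = 0.00407), and without replicate 3 its direction turned, at 0.055 (adjusted p = 0.847). At 1/5 LD50 at day 3 its 3 libraries, at 42.3, 37.9 and 39.3 FPKM, were all above saline (0.33, adjusted p = 0.247), which passed without the 2 libraries of high mitochondrial share (adjusted p = 0.0374) and in a fit of only the groups compared (adjusted p = 0.0429).

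Contrasts between days within the soman groups do not use saline. Day 7 minus day 1, over the 3 doses, gave 4 of 7 members lower and 1 higher, where 14.8% of tested genes were lower and 10.2% higher. Scn1a fell by 0.59 on the log2 scale (SE 0.06, adjusted p = 3.61e-08), Scn2a by 0.57 (SE 0.05, adjusted p = 8.32e-09), Scn8a by 0.33 (SE 0.06, adjusted p = 0.000325) and Scn2b by 0.20 (SE 0.05, adjusted p = 0.00205), while Scn3b rose by 0.21 (SE 0.07, adjusted p = 0.0232). For Scn1a this set 13.8 to 20.3 FPKM in 9 libraries of day 7 beside 21.8 to 28.95 FPKM in 9 of day 1, and for Scn2a 22.25 to 31.3 FPKM at day 7 beside 36.0 to 44.8 FPKM at day 1, with no overlap in either gene.

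The falls of Scn1a, Scn2a and Scn2b between day 1 and day 7 passed under all 27 alternatives, with log2 changes from -0.63 to -0.43 for Scn1a and from -0.60 to -0.40 for Scn2a. That of Scn8a was lost under 1, removal of the length trend (-0.12, adjusted p = 0.171). The rise of Scn3b was lost under 8 of 27, among them those without replicate 2 of 1/5 LD50 at day 1 (0.17, adjusted p = 0.0671), replicate 1 of 1/2 LD50 at day 1 (0.17, adjusted p = 0.0678) or replicate 1 of 1/2 LD50 at day 7 (0.19, adjusted p = 0.0619).

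By day 14 the same 4 genes were higher than at day 7, where 17.1% of tested genes were higher. Scn1a rose by 0.64 (SE 0.06, adjusted p = 1.92e-08), Scn2a by 0.53 (SE 0.05, adjusted p = 5.46e-08), Scn8a by 0.35 (SE 0.06, adjusted p = 0.000162) and Scn2b by 0.29 (SE 0.05, adjusted p = 3.06e-05) on the log2 scale, and all 4 calls passed under all 27 alternatives. Scn1a was at 23.15 to 28.7 FPKM in 9 libraries of day 14, and Scn2a at 35.5 to 41.3 FPKM, both above every library of day 7. Scn3a (0.05), Scn3b (-0.09) and Scn4b (0.22, adjusted p = 0.105) did not pass, and the change of Scn4b was 0.32 without replicate 1 of 1/10 LD50 at day 7 (adjusted p = 0.00561) and 0.097 without replicate 3 of that group (adjusted p = 0.3).

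Day 14 minus day 1 called 0 of 7 members with limma, where 14.9% of tested genes were called. At an unadjusted p under 0.05 the count was also 0, where 28.2% of tested genes were under that p. Against saline, day 14 gave 0 of 7 members at each dose by limma, adjusted or not. Of tested genes 0.435%, 0.163% and 0.415% were called at 1/10, 1/5 and 1/2 LD50. At an unadjusted p under 0.05 these shares were 11.3%, 10.4% and 8.93%. The log2 changes of Scn1a were then -0.14, 0.03 and 0.00 (SE 0.10 each) and those of Scn2a -0.09, 0.03 and -0.01 (SE 0.09 each). At 1/10 LD50 all 3 libraries of Scn1a (24.2, 23.15 and 23.5 FPKM, against 25.2 to 27.4 FPKM with saline) and of Scn8a (25.8, 23.6 and 23.0 FPKM, against 25.9 to 30.0 FPKM) were still below saline.

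An F-test over the 4 days called Scn1a (adjusted p = 6.89e-10), Scn2a (adjusted p = 8.31e-10), Scn8a (adjusted p = 3.31e-06) and Scn2b (adjusted p = 0.000109), or 4 of 7, where 49.5% of tested genes were called. Scn3a (adjusted p = 0.434), Scn3b (adjusted p = 0.0689) and Scn4b (adjusted p = 0.096) did not pass, though Scn3a did with the length trend removed (adjusted p = 0.02). The Scn3b test passed without any 1 of 4 libraries, replicate 1 of 1/5 LD50 at day 1 (adjusted p = 0.0215), replicate 2 of 1/2 LD50 at day 1 (adjusted p = 0.0142), replicate 1 of 1/10 LD50 at day 3 (adjusted p = 0.0389) or replicate 3 of 1/2 LD50 at day 7 (adjusted p = 0.0421). That of Scn4b passed without replicate 1 of 1/10 LD50 (adjusted p = 0.00369) or replicate 3 of 1/5 LD50 (adjusted p = 0.0442) at day 7. Over all 36 single libraries left out, the adjusted p ran up to 0.175 for Scn3b and 0.173 for Scn4b.

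Few contrasts between doses passed. Over the 4 days 1/2 LD50 minus 1/10 LD50 called 0 of 7 members with limma, where 0.0408% of tested genes were called, and 1 at an unadjusted p under 0.05 (Scn2b, 0.11 ± 0.04 SE, adjusted p = 0.146), where 19.8% of all tested genes were under that p. The Scn2b value passed without replicate 1 of 1/10 LD50 at day 7 (0.13, adjusted p = 0.0275), and over the 24 libraries left out in turn its adjusted p ran up to 0.313. The interaction of dose and day called 0 of 7, where 1.59% of tested genes were called, and 1 at an unadjusted p under 0.05 (Scn8a, adjusted p = 0.201), where 21.7% of all tested genes were under that p. Without that same library Scn4b passed the interaction test (adjusted p = 0.0103, up to 0.412 over the 36 libraries left out in turn).

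Within single days the F-test among doses called 0 of 7 members at day 1, day 3 and day 14, adjusted or not. It called 0.129%, 0% and 0.034% of tested genes at those days, and 8.61%, 4.09% and 9.53% had an unadjusted p under 0.05. At day 7 it called Scn2a (adjusted p = 0.0423), where 25.4% of tested genes were called, with 29.4 ± 1.69 FPKM at 1/10 LD50, 23.9 ± 1.79 at 1/5 LD50 and 27.9 ± 2.95 at 1/2 LD50 (SD, n = 3 each). The middle dose was the lowest. This call was lost under 9 of 18 alternatives, with adjusted p = 0.407 without the 2 libraries of high mitochondrial share, 0.0698 without replicate 2 and 0.156 without replicate 3 of 1/10 LD50, and 0.181 without replicate 2 and 0.117 without replicate 3 of 1/5 LD50. Leaving out replicate 1 of 1/10 LD50 added Scn8a (adjusted p = 0.0389) and Scn4b (adjusted p = 0.002), and leaving out replicate 1 of 1/2 LD50 added Scn1a (adjusted p = 0.0115). Over the 9 libraries left out in turn the adjusted p ran up to 0.225 for Scn8a, 0.644 for Scn4b and 0.213 for Scn1a.

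The mean of all 12 soman groups against saline called only Scn1a among the 7 (-0.33 ± 0.08 SE, adjusted p = 0.0185, below all saline libraries in 28 of 36), where 2.57% of tested genes were called and 2.16% were lower. Leaving out saline replicate 1, 2 or 3 in turn ended that call (adjusted p = 0.0726, 0.0937 and 0.196). Scn2a, at -0.23 (adjusted p = 0.0554), passed without any 1 of 6 soman libraries, namely each of the 3 replicates of 1/10 LD50 at day 3 (adjusted p = 0.0446, 0.0329 and 0.0433), replicate 3 of 1/5 LD50 at day 3 (adjusted p = 0.0461), replicate 3 of 1/10 LD50 at day 7 (adjusted p = 0.0426) and replicate 2 of 1/2 LD50 at day 7 (adjusted p = 0.0441). Without that replicate 3 of 1/10 LD50 at day 7, Scn2b also passed (-0.18, adjusted p = 0.0493). Over all 39 libraries left out in turn the adjusted p ran up to 0.369 for Scn2a and 0.459 for Scn2b.

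To set alpha against beta genes within a library, the mean log2(FPKM + 1) of the 4 alpha genes was taken minus that of the 3 beta genes, as a description without a test. With saline the difference was -0.70, -0.595 and -0.635. At day 1 the group means differed from the saline mean by -0.03, 0.02 and 0.06 from the low to the high dose. At day 3 they differed by -0.29, -0.44 and -0.45, and all 9 libraries lay below all saline libraries. At day 7 they differed by -0.11, -0.51 and -0.38, with 8 of 9 libraries below saline and 1 above. At day 14 they differed by -0.11, -0.08 and -0.06, and at each dose 2 of 3 libraries were still below all saline libraries and 0 above.

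The exception at day 7 was replicate 3 of 1/10 LD50, the library with Scn4b at 14.15 FPKM, whose difference of -0.42 was above all saline libraries. Within the alpha genes, Scn1a minus Scn3a spanned 1.32 to 1.90 at day 7 and 1.51 to 2.03 at day 3, against 2.22 to 2.27 with saline, so that these 2 alpha genes came closer by more than the saline spread. At day 1 it spanned 1.82 to 2.34 and at day 14 1.92 to 2.35, with most libraries of both days also below saline. Within the beta genes, Scn2b minus Scn3b spanned 0.54 to 1.08 at day 7, against 1.325 to 1.501 with saline. Its spans were 0.88 to 1.58 at day 1, 0.88 to 1.43 at day 3 and 0.82 to 1.38 at day 14, again with most libraries of each day below saline. The split by class was thus not a split by direction, since the beta gene Scn2b fell as Scn1a, Scn2a and Scn8a did. The alpha gene Scn3a, whose changes against saline were of both signs, was not called in any group and shows no direction.

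**Figure D3:**
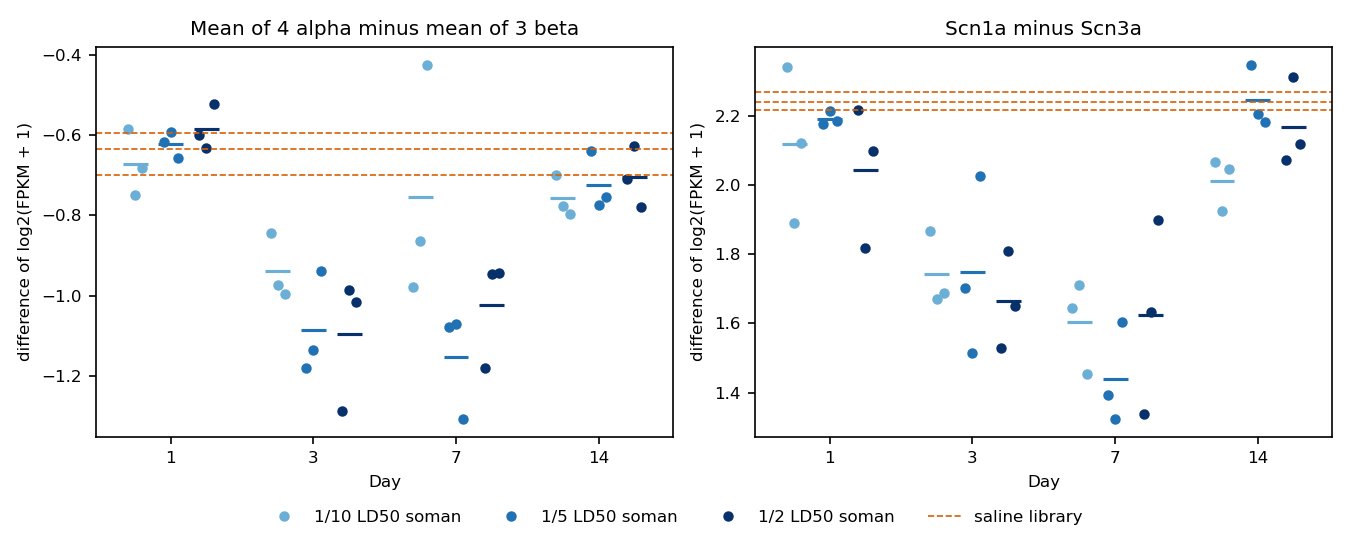
Difference of log2(FPKM + 1) per library between the mean of the 4 alpha genes and that of the 3 beta genes (left) and between Scn1a and Scn3a (right), against day, with group means as bars (n = 3) and saline libraries as dashed lines. Both differences are lower at days 3 and 7 than with saline, apart from 1 library of 1/10 LD50 at day 7 on the left, and the vertical axes do not start at 0.

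The order of the members by level changed with these shifts. In the group of 1/5 LD50 at day 7 Scn2b averaged 41.9 FPKM, Scn4b 31.0, Scn2a 23.9, Scn3b 22.0, Scn8a 18.0, Scn1a 14.2 and Scn3a 4.60. Scn3b, at 20.9 to 22.8 FPKM, was there above every library of Scn8a (17.0 to 19.0 FPKM) and of Scn1a (13.8 to 14.65 FPKM), whereas with saline it was below every library of both. Among neighbours in this order Scn2b overlapped with Scn4b and Scn2a with Scn3b, and the others did not overlap. The longest transcript of Scn3b has 4150 bases, against 11436 for Scn8a and 8386 for Scn1a. The part of transcript length in the crossing of Scn3b with these genes was not tested.

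Across the 39 libraries Scn1a correlated with Scn2a at Pearson r = 0.88 and with Scn8a at 0.82, and Scn2a with Scn8a at 0.85 (log2 scale, 39 libraries, a description since the libraries share groups). Scn2b correlated with Scn1a at 0.67 and with Scn2a at 0.63. Scn3a correlated with the other alpha genes at 0.20 to 0.23 and with Scn3b at 0.495, and Scn3b with Scn1a at -0.46. Scn4b reached no more than 0.41 with any member, which was with Scn2b.

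More long than short transcripts were called in the same direction as Scn1a, Scn2a and Scn8a. With tested genes in 4 bins of equal size by longest transcript, the 4 alpha genes and Scn4b fell in the bin of 4758 bases or more, and Scn2b and Scn3b in the bin of 3278 to 4756 bases. In the longest bin 16.4%, 18.9% and 15.0% of genes were lower at day 3 from the low to the high dose and 24.9%, 28.6% and 20.6% at day 7, against 0.81%, 0.866% and 0.726% at day 3 and 8.66%, 0.782% and 1.01% at day 7 in the shortest. At 1/5 LD50 at day 7 the median log2 change of the longest bin was -0.15, and Scn1a (-0.84), Scn2a (-0.71) and Scn8a (-0.58) lay below it, Scn3a (-0.04) and Scn4b (-0.03) above it. From day 7 to day 14, 40.9% of the longest and 2.35% of the shortest genes rose. The part of transcript length in the member changes was examined only by removing the trend, as given above for each gene.

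**Figure D4:**
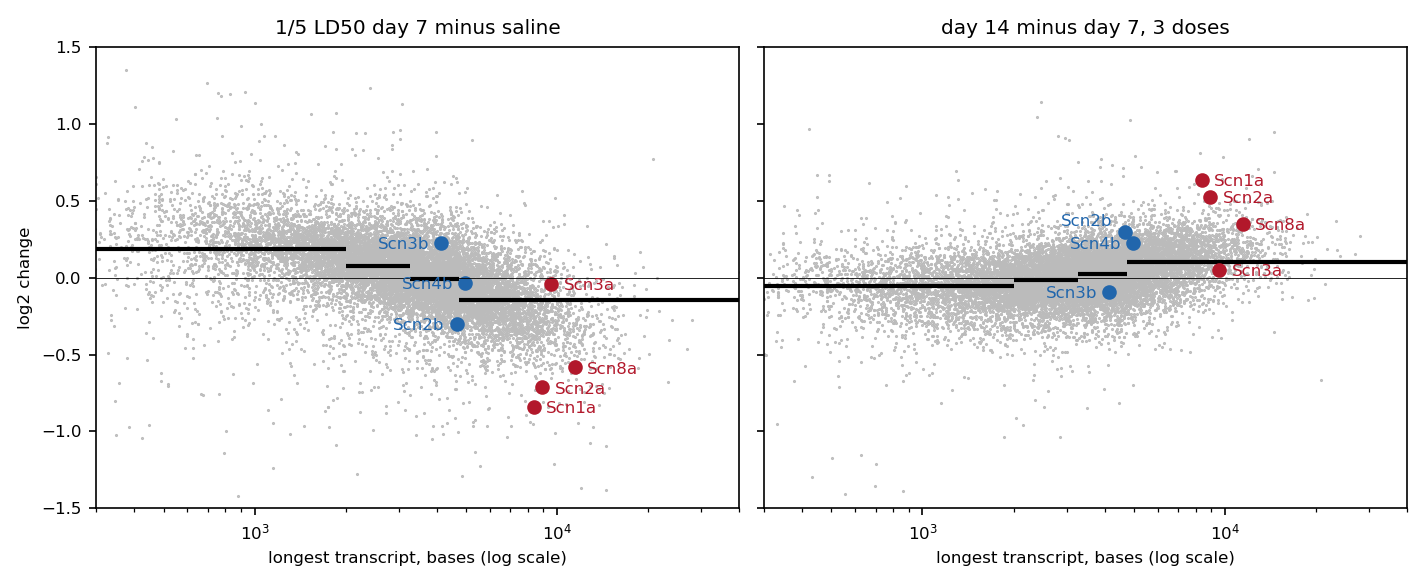
Log2 change of each tested gene (grey) against the length of its longest transcript (log scale), with medians of 4 length bins (black bars) and the alpha (red) and beta (blue) subunits, for 1/5 LD50 at day 7 minus saline (left) and day 14 minus day 7 over 3 doses (right). Longer genes lie lower on the left and higher on the right, Scn3a keeps close to 0 in both panels, and 267 and 256 of 14324 genes fall outside the axes.

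Markers of neurons and of other brain cells were read from the same libraries. None of 9 general neuron markers was called at 1/5 LD50 at day 7, and their summed FPKM was 1717 to 1876, against 1779 to 1862 with saline. In that group 8.87% of all tested genes were lower and 6.49% higher, the shares to set beside each marker count here. Of 5 genes listed for parvalbumin interneurons (Pvalb, Gad1, Gad2, Kcnc1 and Kcnc2), 2 were lower there. Their sum was 273 to 344 FPKM, against 332 to 337 FPKM with saline. Of 6 Purkinje cell markers 1 was lower and of 6 cerebellar granule cell markers 0, though the granule markers summed to 81.0 to 127 FPKM there, against 177 to 223 FPKM with saline. All 6 meningeal fibroblast markers were lower in the same group. Above all saline libraries were the sums of 6 forebrain excitatory neuron markers (990 to 1081 FPKM, against 885 to 924 FPKM with saline, 0 called) and of 7 striatal projection neuron markers (298 to 344 FPKM, against 244 to 247 FPKM with saline, 2 called higher). So were those of 5 endothelium markers (79.5 to 98.7 FPKM, against 62.0 to 66.3 FPKM with saline). The sum of 5 oligodendrocyte markers was above them too (2921 to 3174 FPKM, against 2699 to 2845 FPKM with saline). None of these markers was at 0 in all 3 saline libraries, and their part in the member changes was not tested.

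Other genes of the channel and its anchoring complex were taken from a fixed list. Of 8 further family genes 2 passed the filter, and 1 of them, Nalcn, was called in at least 1 of the 12 comparisons with saline. Of 16 tested partners (fibroblast growth factor homologous factors, ankyrins, spectrin, adhesion molecules, M-current channels and the like), 10 were called in at least 1 of those comparisons, as were 35.2% of all tested genes. At 1/5 LD50 at day 7, 7 of 16 were lower and 0 higher, where 8.87% of tested genes were lower, and their median log2 change was -0.22, against 0.04 for all tested genes. At 1/2 LD50 at day 3, 5 of 16 were lower, where 4.65% of tested genes were lower. Every partner called lower in any group had a longest transcript of 5440 bases or more. Among all genes of 4758 bases or more, 28.6% were lower at 1/5 LD50 at day 7 (median log2 change -0.15) and 15.0% at 1/2 LD50 at day 3. The partner counts were not tested against these shares. Besides those given below, the adhesion molecule Nrcam was lower in 2 groups, the M-current channel gene Kcnq3 at 1/5 LD50 at day 7, and the spectrin gene Sptbn4 at 1/10 LD50 at day 7, where Fgf12 was higher. In that group Sptbn4 was at 42.6, 35.35 and 27.3 FPKM, against 43.7, 44.9 and 41.4 FPKM with saline, and Fgf12 at 24.6, 27.8 and 33.7 FPKM, against 22.4, 24.1 and 25.3 FPKM with saline. For both genes replicate 1 lay within the saline range or close to it, and replicates 2 and 3, those of high mitochondrial share, lay outside it.

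Nfasc, the neurofascin that gathers sodium channels at nodes and initial segments, was lower in 8 groups, more than any other partner. At 1/5 LD50 at day 7 it was at 32.4, 32.5 and 34.0 FPKM, against 46.3, 48.2 and 46.9 FPKM with saline (-0.50 ± 0.07 SE, adjusted p = 8.64e-06). It was also lower at day 14, with 35.8, 30.3 and 34.9 FPKM at 1/10 LD50 (-0.48, adjusted p = 0.000887) and 35.1, 37.9 and 37.5 FPKM at 1/2 LD50 (-0.35, adjusted p = 0.0112). Removing the length trend ended 5 of the 8 calls, those of day 3 and of 1/10 and 1/2 LD50 at day 7 (adjusted p = 0.0576 to 0.459). The change of Nfasc between day 7 and day 14 was 0.04 (adjusted p = 0.49). The day 14 call of 1/10 LD50 was lost without the 7 libraries (adjusted p = 0.0885), and that of 1/2 LD50 without them (adjusted p = 0.209), in a fit of only the groups compared (adjusted p = 0.0586), and without saline replicate 2 (adjusted p = 0.0758), saline replicate 3 (adjusted p = 0.0519) or its own replicate 1 (adjusted p = 0.114).

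Nalcn, the sodium leak channel, fell at 1/5 LD50 at day 7 to 17.5, 16.6 and 14.3 FPKM, against 22.6, 23.7 and 23.7 FPKM with saline (-0.51 ± 0.08 SE, adjusted p = 7.43e-05). Cntn1, an axonal adhesion molecule, fell in that group to 57.25, 64.1 and 66.1 FPKM, against 90.8, 82.35 and 91.55 FPKM with saline (-0.49 ± 0.07 SE, adjusted p = 1.74e-05). Ank2, the ankyrin-B scaffold, was lower in 5 groups, Cntnap1, the paranodal Caspr, in 4, and Bace1, the protease that cleaves beta subunits, in 6, with log2 changes at 1/5 LD50 at day 7 of -0.51, -0.44 and -0.38 (adjusted p = 0.000357, 0.000364 and 0.00216). From day 7 to day 14 Nalcn (0.31), Cntn1 (0.25), Ank2 (0.33), Cntnap1 (0.19) and Bace1 (0.18) rose, and with the length trend removed the calls of Ank2 (0.12, adjusted p = 0.0597) and Bace1 (0.09, adjusted p = 0.103) were lost. At 1/5 LD50 at day 7 the calls of Nfasc, Cntn1, Nalcn, Cntnap1 and Bace1 passed under all 15 alternatives, and that of Ank2 was lost with the length trend removed (adjusted p = 0.194). That removal ended all 5 calls of Ank2, 4 of 6 of Bace1, 4 of 5 of Nalcn and 1 of 4 of Cntnap1. The calls of Nalcn, Cntnap1 and Bace1 at 1/5 LD50 at day 3 were lost under 12, 11 and 9 of 15 alternatives.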

How the data were processed

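RNA of mouse brain was purified with poly(dT) beads and, per the labels' protocols, turned into cDNA by SmartScribe reverse transcriptase. The submitters' processing notes name HISAT2, without a version, and, though the samples are from mouse, the human build GRCh38, so that no coordinate comes from the deposited values. The authors deposited FPKM in 1 table of 47561 genes by 39 libraries, and the program behind it is not given in the sources used here. Whole reads could not be recovered (1.28% of low-value steps at the commonest ratio), so depth is unknown and no count test was run.

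The 14701 genes that reached 1 FPKM in 3 or more libraries entered the test as log2(FPKM + 1), a scale that understates changes of low genes, in 1 model of 13 group means with limma 3.58.1 in R 4.3.3 (eBayes with trend). The Benjamini-Hochberg adjustment covered every tested gene, and calls needed an adjusted p under 0.05. The members and lists were chosen with earlier results of these data known. The code was tested on simulated data.

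Longest transcripts came from GENCODE vM21 (14324 tested genes, 97.44%) and promoters from RefSeq (GRCm38.p6). Partners were named if called in a comparison with saline, with values for the 6 of smallest p, and for Scn1a, Scn8a, Scn2b and Scn4b the 3 named genes of mean FPKM of 2 or more with the highest correlation. A few genes that these rules select are not reported here. Results were recomputed with the replicate number as a block, a fit of only the groups compared, median-ratio scaling, a pseudocount of 0.1, all genes kept without the filter, removal of each library's lowess trend on transcript length (span 0.5), leaving out the 2 libraries of high mitochondrial share, a set of 7 libraries named in earlier work on these data for lying between the others of their group (from saline replicate 3, from day 1 the replicates 3, from day 7 replicate 2 of 1/10 LD50, and from day 14 the replicates 3 of 1/10 and 1/5 LD50) and each library in turn, and, chosen after seeing the data, the 3 libraries of low cerebellar markers. Figures were drawn with matplotlib 3.10.9 and descriptive values computed with pandas 2.3.3 and numpy 2.4.6, all under Python 3.11.15.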

Additional observations from a re-analysis of the deposited data

Results flagged for a closer look

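These results were picked out because the change against saline differed between days, as tested by contrasts in which saline cancels (limma, 9 libraries a day, 3 doses). From day 1 to day 7 the log2 change was -0.59 for Scn1a, -0.57 for Scn2a, -0.33 for Scn8a and -0.2 for Scn2b, all lower at day 7, and 0.21 for Scn3b, higher at day 7. From day 7 to day 14 it was 0.64 for Scn1a, 0.53 for Scn2a, 0.35 for Scn8a and 0.29 for Scn2b, all higher at day 14. The collection days of the libraries cannot be told apart from the time since soman.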

How the results depend on the processing

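Counts below are of the 7 members called, and the shares of all tested genes called under each alternative are not given here. With the length trend removed the counts at day 3 were 0, 1 and 1 at 1/10, 1/5 and 1/2 LD50, against 3 each in the reported test, and 0 for all soman groups (1 reported). Without the set of 7 libraries they were again 0, 1 and 1, and 0 for all soman groups. At 1/10 LD50 at day 7 the count was 0 (3 reported) in a fit of only the groups compared. There the log2 changes of Scn1a (-0.60), Scn2a (-0.42) and Scn2b (-0.47) were as in the reported test. Outside the members, Nfasc, Nalcn, Ank2, Cntnap1 and Bace1 also lost their calls in that fit (adjusted p = 0.204 to 0.214, limma). Without the 2 libraries of high mitochondrial share a single library was left in that group, with changes of -0.51, -0.48 and -0.33 for the same 3 members. Without those 2, and without the 3 libraries of low cerebellar markers, all soman groups gave 2, and leaving out those 3 gave 1 for 1/10 LD50 at day 3. Among doses at day 7 (1 reported) the count was 0 with no filter, a fit of only the groups compared, the length trend removed, without the 2 and without the 7 libraries, 3 with median-ratio scaling and 2 without the 3 libraries.

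Leaving out each library in turn gave 1 to 3 for each dose at day 3, 0 to 3 for all soman groups, 0 to 1 for 1/2 minus 1/10 LD50 and for the interaction, and 0 to 3 among doses at day 7. With the length trend removed the alpha minus beta difference from saline was -0.16 and -0.29 at 1/10 and 1/5 LD50 at day 3, and -0.31 and -0.24 at 1/5 and 1/2 LD50 at day 7. That removal turned 2 directions, day 7 minus day 1 of Scn3a (0.16, adjusted p = 0.0149) and day 14 minus day 7 of Nfasc (-0.12, adjusted p = 0.0113). In 75 of 3521 member values, uncalled both ways, the sign differed. Where no value shows it, the cause was not tested.

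Replicate numbers do not pair the libraries. Deviations from group means correlated at a median of 0.005 in 234 pairs of the same number (39 over 0.1) and 0 in 468 of different numbers (77 over 0.1). With the replicate block 3, 4 and 3 members were called at day 7, as without it, and neither the block nor a pseudocount of 0.1 changed a member's call. Unknown read depth and 3 libraries a group limit what small changes can be seen.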

Other observations

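The genes whose log2(FPKM + 1) followed a member most closely over the 39 libraries are given with Pearson's r, as a description. For Scn1a they included Kif1b, a kinesin motor (0.97), and Usp9x, a deubiquitinase (0.96), with longest transcripts of 10233 and 11887 bases. For Scn8a they were Atp2b2, a plasma membrane calcium pump (0.945), Plxna4, a semaphorin receptor (0.92), and Ncoa2, a nuclear receptor coactivator (0.91), with 8877, 12877 and 8171 bases. For the beta gene Scn2b they were Gtf3c4 (0.88), Tollip (0.86) and Rnf145 (0.855), with 7127, 3788 and 4214 bases. For Scn4b they were Cd99l2 (0.80), Snn (0.80) and Oaz2 (0.79), with 3600, 2872 and 1843 bases. These values mix differences between groups with differences between libraries of a group.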
